A study of Mus musculus with 2 samples.

Results

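The 45 genes described here encode proteins of DNA repair and of the Fanconi anaemia pathway. They were chosen by name, with earlier results of these data known. Each was read from probe sets that the platform annotation assigns to that gene alone, keeping the 1 with the highest mean of the 2 values. Of the 45 genes, 41 were measured in this way, among 22180 genes on the array. The other 4 (Rad54b, Xrcc2, Fanca and Apex1) had no such probe set and were not analysed here. A further 5 probe sets are annotated to a listed gene together with another gene and were left out. Of those 5, 3 read higher and 2 lower in the EWS-OCT4A-GFP sample.

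Transcript levels were measured on an Affymetrix array in 2 samples, each from a stable line derived from NIWA mouse embryonic stem cells. The EWS-OCT4A-GFP sample comes from a line that expresses the EWS-OCT4A fusion with GFP, called the fusion line below, and the GFP sample comes from the control line, which expresses GFP. EWS-OCT4A joins the EWS protein to OCT4A, the form of the transcription factor OCT4 that maintains pluripotency. Both lines were kept in medium with LIF, a cytokine that sustains mouse embryonic stem cells, and both received doxycycline at 1 µg/ml to lower endogenous OCT-4. The promoter that drives the transgenes, the length of the treatment and whether a line is 1 clone are not given in the sources used here. Because each group has 1 sample, the conditions cannot be tested, no value has a replicate error, and the differences below are descriptions of these samples. No sample without doxycycline was analysed here, so a higher value in one line and a lower value in the other cannot be told apart.

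Values are log2 summaries, and a difference is the value of the fusion line minus that of the control line, so a positive difference means higher with EWS-OCT4A-GFP. A gene is called higher or lower when that difference is at least 2-fold (1 on the log2 scale) and the higher of its values reaches a floor of 4.10, the median over both columns. Signal over background is unknown. Values are compared between samples within a gene, not between genes.

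DNA repair is divided among pathways that recognise different lesions. Homologous recombination copies an intact sister strand to mend a double-strand break, end joining ligates the ends directly, and the Fanconi anaemia pathway opens crosslinked strands and hands them to recombination. Mismatch repair corrects replication errors, base excision repair removes damaged single bases, nucleotide excision repair cuts out bulky lesions, and the kinases ATM, ATR, CHK1 and CHK2 signal damage to the cell cycle. Mouse embryonic stem cells cycle rapidly, spend much of the cycle in S phase and are known for a strong use of homologous recombination.

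Repair genes mostly read higher with EWS-OCT4A-GFP. Of the 41 measured genes, 37 had a difference above 0, 15 were at least 2-fold higher and 0 were lower by that much. The median difference was 0.72, or 1.65-fold, and single differences ran from -0.43 (Ercc5) to 2.22 (Parp1). Among the 13516 genes at or above the floor, 9.31% were called higher and 11.9% lower at 2-fold, 51.2% had a difference above 0, and the median difference was 0.03. Among genes at or above the floor whose mean lay in the range of the members, from 4.54 to 8.72, the shares higher and lower were 10.0% and 13.2%. All 41 genes passed the floor. Fancl was the 1 gene that passed it through the EWS-OCT4A-GFP sample alone. At a 3-fold size 10 members were higher, against 3.43% of all genes at or above the floor, and at 1.5-fold 22 were, against 20.0%. At these sizes 0 members were lower, against 5.82% and 20.6% of all genes. The plot of both values for each gene shows the shift gene by gene.

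**Figure D1:**
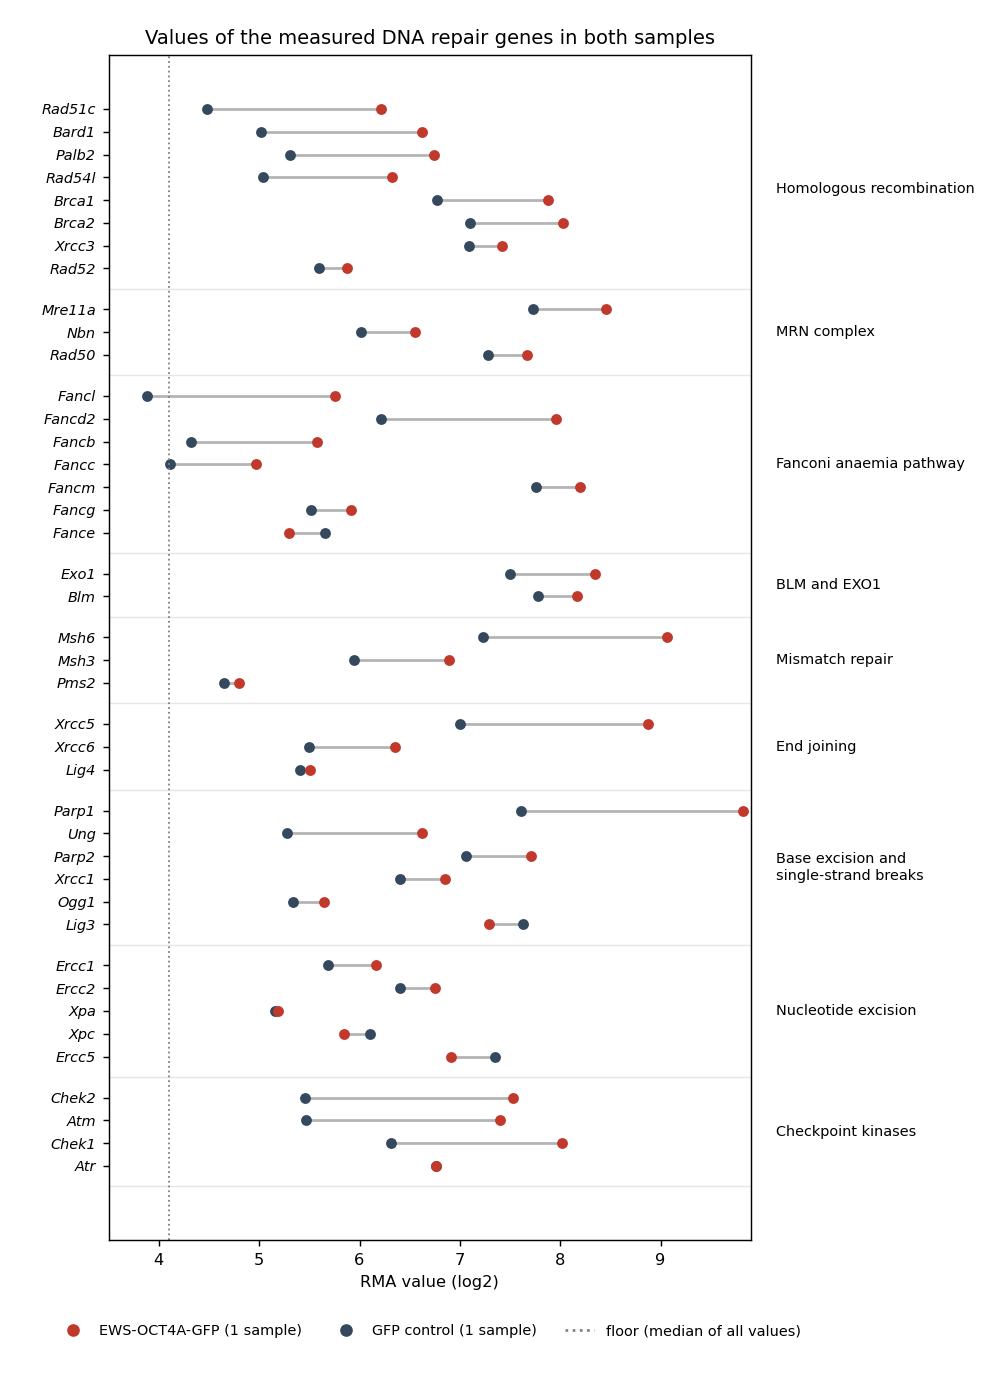
RMA values (log2, horizontal axis) of the 41 measured repair genes, grouped by role, in the EWS-OCT4A-GFP sample (red) and the GFP control (dark blue), 1 sample each, with the floor of 4.10 as a dotted line. The red point lies to the right for 37 genes and to the left for Fance, Lig3, Xpc and Ercc5.

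Genes used as markers of cell state also differed between the samples. Of 28 measured genes of replication and proliferation, 27 had a difference above 0, the median was 0.97 and 14 genes were past 2-fold in the higher direction. Their values ran from 5.75 to 9.70 in the EWS-OCT4A-GFP sample and from 4.10 to 9.16 in the GFP control. Gins1 (1.81), Mcm3 (1.72), Pcna (1.66) and E2f2 (1.65) differed most. The control value of E2f2 (4.10) lay at the floor, so the size of its difference is uncertain. Of 16 pluripotency markers 15 were at least 2-fold higher (group medians of the values 8.65 and 5.57), and of 17 trophectoderm markers 15 were at least 2-fold lower (4.35 and 8.01). The other 2 trophectoderm markers were within 2-fold. Krt18 (4.35 in the fusion line and 10.71 in the control line), Syna (4.27 and 10.52), Gata2 (4.29 and 9.74) and Krt8 (5.70 and 10.99) differed most. The pluripotency markers Esrrb (4.07), Prdm14 (3.89), Fgf4 (4.09), Dppa5a (2.89) and Nr0b1 (1.96) read under the floor in the GFP control, and of these 5 Dppa5a was under it in the fusion line too (3.81). In the control line Fgf4 and Esrrb lay just under the floor, and the remaining 11 markers read between 4.41 (Dppa3) and 7.77 (Zfp42). Signal over background is unknown, so these pluripotency values alone do not settle whether the label of embryonic stem cells holds for the control line. In that line all 17 trophectoderm markers read over the floor, from 4.44 to 10.99. The state of the control line was not tested. The 7 pluripotency markers named here were chosen after their values were seen. Of 16 fibroblast markers, 2 were at least 2-fold higher and 3 lower, with a median of 0.04. Of 18 genes of the p53 response 0 were at least 2-fold higher and 5 were lower, with a median of -0.45. The other 13 were within 2-fold, and 4 of the 18 had a difference above 0. Cdkn1a (-2.77), Plk3 (-2.01), Btg2 (-1.82) and Plk2 (-1.815) differed most. The part of cell state or of proliferation in the differences of the repair genes was not tested, and in these bulk samples fewer cells of a type and less RNA per cell cannot be told apart.

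The checkpoint kinases had the highest median of the groups, at 1.82, with 3 of 4 at least 2-fold higher. Chek2, which encodes the kinase that ATM activates at double-strand breaks, read 7.53 in the fusion line and 5.46 in the control line, a difference of 2.08 or 4.22-fold. Atm itself read 7.40 and 5.47, a difference of 1.93 or 3.81-fold. Chek1, which encodes the kinase that ATR activates at stalled forks, read 8.01 and 6.31, a difference of 1.70. Atr stood apart from the other 3, with 6.76 in both samples and a difference of 0.00. A second Atr probe set read 3.90 and 4.28, the lower of these under the floor, a difference of -0.38. So both genes of the ATM-CHK2 arm were higher, whereas in the ATR-CHK1 arm the effector kinase was higher and the upstream kinase was level.

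Homologous recombination genes followed, with a median of 1.19. All 8 had a difference above 0 and 5 were at least 2-fold higher. Rad51c, which acts in strand exchange and in crosslink repair, read 6.22 in the fusion line and 4.48 in the control line, a difference of 1.74 or 3.34-fold. Its control value is near the floor, so the size of that difference is uncertain. Bard1, the obligate partner of BRCA1 in an E3 ubiquitin ligase, read 6.63 and 5.01, a difference of 1.61. Brca1 read 7.88 and 6.77, a difference of 1.11, so both subunits of the heterodimer were higher, Bard1 by the larger amount. Palb2, which bridges BRCA1 and BRCA2, read 6.75 and 5.31, a difference of 1.44. Rad54l, a DNA translocase of strand exchange, read 6.32 and 5.04, a difference of 1.28. Brca2, a mediator of strand exchange and a tumour suppressor gene, read 8.03 and 7.10 and lay just under the 2-fold size at 0.93. Xrcc3, which works in a complex with RAD51C, differed by 0.32 (7.42 and 7.10), and Rad52, which anneals single strands, by 0.28 (5.88 and 5.60). Brca1, Bard1, Palb2 and Brca2 thus lay between 0.93 and 1.61, and the 2 smallest differences of the group were those of Xrcc3 and Rad52.

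The MRN complex senses broken ends and starts their resection. All 3 of its genes had a difference above 0 and were within 2-fold. Mre11a, the nuclease, read 8.45 and 7.73, a difference of 0.72. Nbn, the subunit that recruits ATM, differed by 0.54 (6.56 and 6.02), and Rad50, the ATPase, by 0.38 (7.66 and 7.28). Exo1, an exonuclease of long-range resection that also acts in mismatch repair, read 8.35 and 7.50, a difference of 0.85. Blm, the helicase that unwinds recombination intermediates, read 8.17 and 7.78, a difference of 0.39. None of these 5 genes of end processing reached 2-fold, although all 5 had a difference above 0.

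The Fanconi anaemia group was uneven, with a median of 0.86, 3 of 7 genes at least 2-fold higher and 1 below 0. Fancl, the ubiquitin ligase subunit of the core complex, read 5.76 in the fusion line and 3.88 in the control line, a difference of 1.88. Its control value is under the floor, so the size of that difference is uncertain. Fancd2, the protein that the core complex marks with ubiquitin, read 7.96 and 6.22, a difference of 1.74 or 3.34-fold. Fancb, which lies beside FANCL in the catalytic module, read 5.58 and 4.32, a difference of 1.26. Fancc read 4.97 and 4.11, close to the floor, a difference of 0.86. Fancm, the translocase that anchors the complex on DNA, differed by 0.44 (8.19 and 7.76), and Fancg by 0.40 (5.91 and 5.51). Fance, which bridges the core complex and FANCD2, was the 1 member of this group that read lower, with 5.29 and 5.66, a difference of -0.36. The 3 genes past 2-fold encode the substrate and a pair of subunits of its ligase module. A further subunit of that module is encoded by Faap100, a repair gene outside this group. Faap100 was within 2-fold, with 5.89 in the fusion line and 5.70 in the control line, a difference of 0.19. The module as a whole was therefore not uniformly higher.

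Mismatch repair and end joining each held 1 gene past 2-fold among 3 measured, and base excision and single-strand break repair held 2 among 6, with medians of 0.95, 0.85 and 0.55. Msh6, which recognises base mismatches, read 9.07 in the fusion line and 7.23 in the control line, a difference of 1.83 or 3.57-fold. Msh3, which takes its place for longer loops, read 6.89 and 5.94, just under 2-fold at 0.95. Pms2, the endonuclease subunit, read 4.80 and 4.65, a difference of 0.15. Both recognition genes had larger differences than the nuclease gene, which also read near the floor.

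In end joining, both genes of the Ku heterodimer that caps broken ends had a difference above 0, and 1 of them passed 2-fold. Xrcc5, which encodes Ku80, read 8.87 in the fusion line and 7.00 in the control line, a difference of 1.87 or 3.66-fold. Xrcc6, which encodes its partner Ku70, read 6.35 and 5.50, a difference of 0.85 or 1.81-fold. Lig4, the ligase of the pathway, read 5.50 and 5.41, a difference of 0.09. Of these 3 genes the end-binding subunit Ku80 had the largest difference and the ligase the smallest.

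Parp1, which encodes the main poly(ADP-ribose) polymerase and first responder at strand breaks, had the largest difference of all 41 genes. It read 9.82 in the fusion line and 7.61 in the control line, a difference of 2.22 or 4.65-fold. Its relative Parp2 read 7.71 and 7.06, a difference of 0.65. Ung, the glycosylase that removes uracil from DNA, read 6.63 and 5.28, a difference of 1.35 or 2.55-fold, whereas Ogg1, the glycosylase for oxidised guanine, differed by 0.31 (5.64 and 5.33). Xrcc1, the scaffold of single-strand break repair, read 6.85 and 6.41, a difference of 0.45. Its partner Lig3 read 7.29 and 7.63, a difference of -0.34. Parp1 and Ung were the 2 genes of the group past 2-fold, and the partners Xrcc1 and Lig3 were within 2-fold in opposite directions.

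Nucleotide excision repair was the group nearest to no difference, with a median of 0.04 and 0 of 5 genes past 2-fold. Ercc5, which encodes the endonuclease XPG, read 6.92 in the fusion line and 7.35 in the control line, a difference of -0.43. Xpc, the damage sensor of the global pathway, read 5.84 and 6.11, a difference of -0.27. Xpa, the scaffold that verifies the lesion, read 5.19 and 5.16, a difference of 0.04. Ercc2, a helicase of TFIIH, differed by 0.34 (6.75 and 6.40), and Ercc1, the partner of the endonuclease XPF, by 0.47 (6.16 and 5.69). Of the 4 repair genes that read lower in the EWS-OCT4A-GFP sample, 2 belong to this group. No difference between the groups of repair genes was tested.

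**Figure D2:**
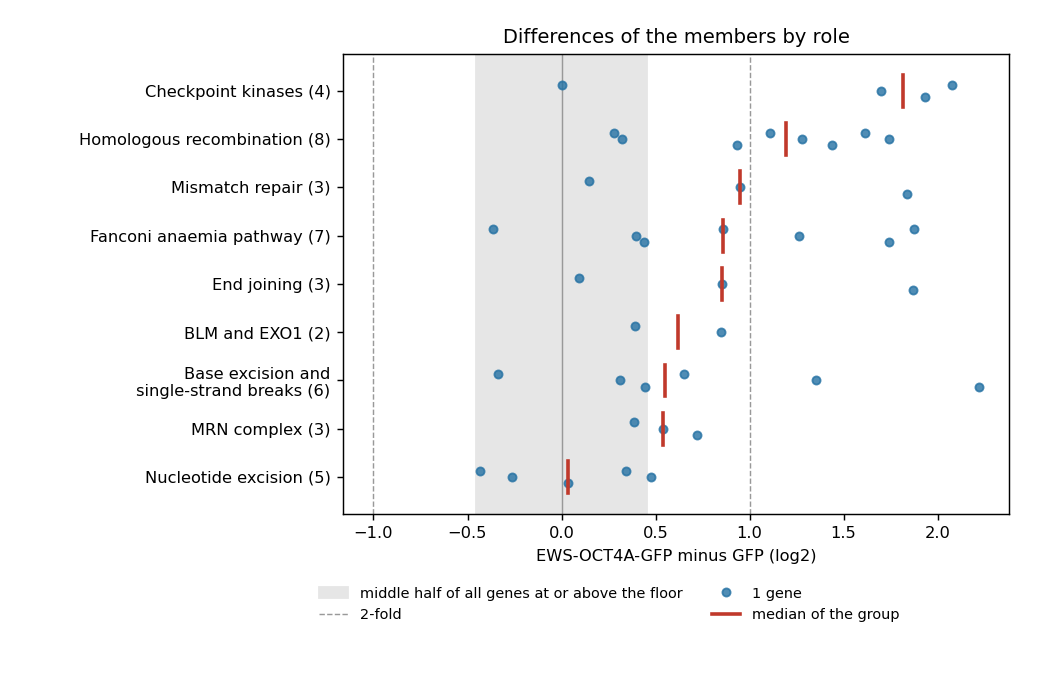
Difference of each measured repair gene (log2, EWS-OCT4A-GFP minus GFP, horizontal axis) by role, with 1 point per gene, the group median as a red line, dashed lines at 2-fold and the interquartile range of all genes at or above the floor in grey. Group medians run from 1.82 for the checkpoint kinases to 0.04 for nucleotide excision repair, and Atr lies at 0.00 below the other 3 kinases.

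In the plot of difference against level 37 of the 41 members lie above 0 over the whole range of their means, and none approaches the largest differences on the array, which ran from -7.84 to 7.65.

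**Figure D3:**
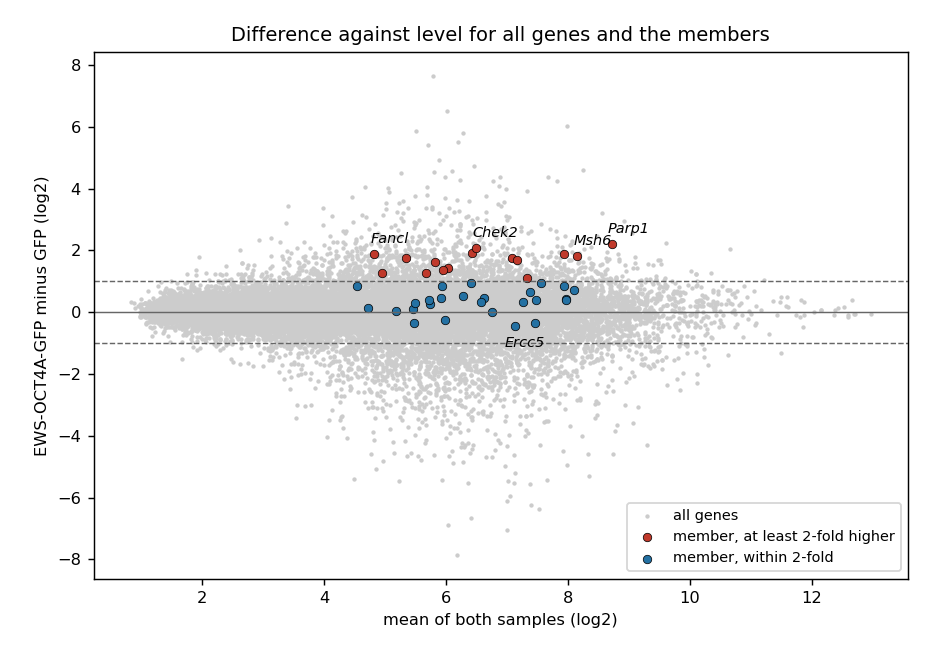
Difference (log2, EWS-OCT4A-GFP minus GFP) against the mean of both samples (log2) for all 22180 genes (grey) and the 41 repair genes (red where at least 2-fold higher, blue where within 2-fold), with dashed lines at 2-fold. The 15 red points spread over the members' range of means, from 4.54 to 8.72, and no member lies under the lower dashed line.

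Promoter sequence was examined because several of these genes are known to be induced with S phase by E2F factors, and because OCT4 binds an octamer. RefSeq promoters of GRCm38.p6, 300 bases each (250 before the start and 50 after), were matched by symbol for 38 of the 45 genes. The words TTTCCCGC, TTTCGCGC, TTTGCCGC and TTTGGCGC, which resemble the E2F site, and the octamer ATGCAAAT were searched on both strands. An E2F word was found for 8 of the 38 genes, or 21.1%, against 2.61% of the 27025 genes of the table and 3.26% of the 16990 with a probe set of their own. Among those with a number of CG pairs between 19 and 26, the interquartile range of the members, the share was 5.38%. Of 24 replication and proliferation genes 37.5% held an E2F word, and of 84 repair genes outside the 45, 7 did, or 8.33%. The octamer was found for 1 member, Parp2, or 2.63%, against 1.97% of the table. A match is a description of the letters and not a bound site.

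The 30 bases around each match are shown to place the searched word in its sequence, each 5′ to 3′ on the gene's strand, with the word in capitals (a word on the opposite strand appears as its reverse complement). In Msh3 the capitals cover a pair of overlapping words, TTTGGCGC on the gene's strand and TTTCGCGC on the other. Rad51c has a word in each of its 2 promoters in the table.
Chek2, chr5:110839820-110839849, + strand: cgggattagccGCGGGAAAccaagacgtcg
Msh6, chr17:87975054-87975083, + strand: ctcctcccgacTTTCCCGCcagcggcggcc
Rad51c, chr11:87404477-87404506, - strand: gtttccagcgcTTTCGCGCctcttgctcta
Rad51c, chr11:87404941-87404970, - strand: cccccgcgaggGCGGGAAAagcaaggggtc
Bard1, chr1:71103163-71103192, - strand: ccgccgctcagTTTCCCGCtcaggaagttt
Msh3, chr13:92355185-92355214, - strand: gccgtcaagTTTGGCGCGAAAtcgcagccc
Brca2, chr5:150522442-150522471, + strand: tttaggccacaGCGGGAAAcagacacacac
Xrcc6, chr15:82016312-82016341, + strand: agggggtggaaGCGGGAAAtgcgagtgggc
Fancg, chr4:43010335-43010364, - strand: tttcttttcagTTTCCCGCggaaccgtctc
Parp2 (octamer), chr14:50807849-50807878, + strand: cacagcgcgtaATTTGCATgcgctctaccc

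All 8 genes with an E2F word had a difference above 0, from 0.40 (Fancg) to 2.08 (Chek2), with a median of 1.28, and 4 genes were past 2-fold. The 28 measured genes whose promoters held none had a median of 0.46, and 25 of them had a difference above 0. A difference above 0 thus did not set the 8 genes apart. Of the 28 genes, 10 were at least 2-fold higher, among them Parp1, Atm, Xrcc5 and Fancl. The ranges overlapped widely and the difference was not tested. The words lay at no common distance from the start.

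**Figure D4:**
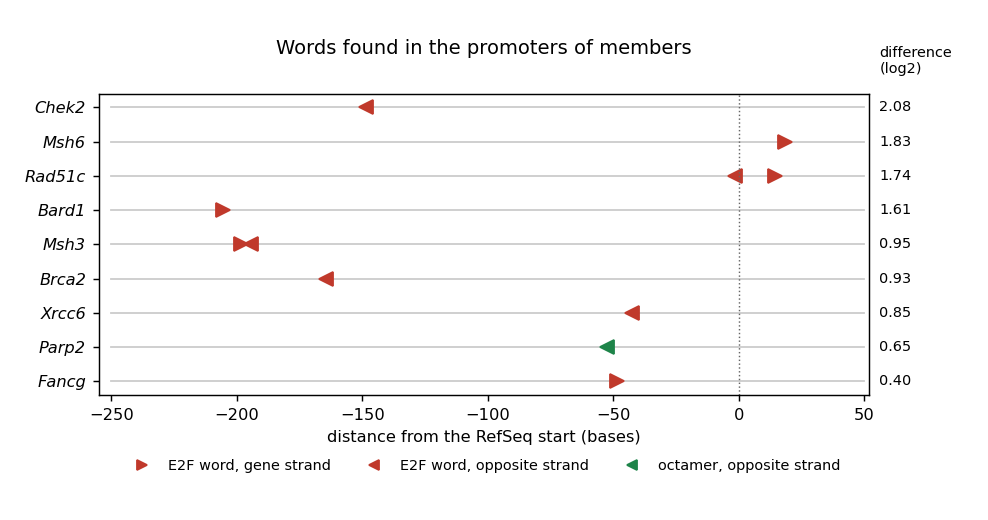
Position of each E2F word (red) and of the octamer (green) in bases from the RefSeq start (0, dotted line) within the 300-base promoters of members that hold one; triangles point right for a word on the gene's strand and left for the opposite strand, and the number at the right is the gene's log2 difference. The words lie between positions -209 (Bard1) and 22 (Msh6), and the marks of Rad51c come from 2 different starts.

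Repair genes often share a promoter with a gene on the other strand. Among the 38 members with a promoter entry, 15 (39.5%) had a start on the opposite strand within 1000 bases in a diverging arrangement, against 13.9% of the genes with a probe set of their own. Both genes were measured for 11 such pairs. The neighbours' differences were above 0 in 5 pairs, below 0 in 5 and 0 in 1, with a median of 0.00, whereas the members of these pairs had a median of 0.85. The neighbour at 0, 1700065D16Rik beside Atr, sets that median and read 2.91 in both samples, under the floor. Atm (1.93) lies 376 bases from Npat, a histone gene regulator, which read lower, with 8.05 in the fusion line and 8.74 in the control line, a difference of -0.70. Brca1 (1.11) lies 152 bases from Nbr1, an autophagy receptor gene, which differed by -0.48. Rad51c (1.74) and Tex14, 111 bases apart, were the 1 pair in which both were at least 2-fold higher, with Tex14, a gene of germ cell intercellular bridges, at 6.57 and 4.93, a difference of 1.64. The neighbours named here were chosen after their values were seen.

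Repair genes outside the 45 showed a smaller shift in the same direction. Because the members and these lists were chosen with earlier results of these data known, the gap between them may reflect that choice. It was not tested. Of 110 listed, 97 were measured, 76 had a difference above 0, 15 were past 2-fold higher and 0 past 2-fold lower, and the median was 0.37. The 15 are 15.5% of the 97, against 9.31% of all genes at or above the floor. At 1.5-fold 32 of the 97 were higher, against 20.0% of all genes, and 3 were lower, against 20.6%. At 3-fold 1 of the 97 was higher, a share under the 3.43% of all genes. Rif1, which restrains end resection and sets replication timing, differed most, with 9.62 in the fusion line and 7.66 in the control line, a difference of 1.96. Lig1, the replicative ligase, differed by 1.56, Polh, the translesion polymerase for ultraviolet lesions, by 1.44, and Sfr1, a recombination cofactor, by 1.42. The lowest were Polk, a translesion polymerase, at -0.997, and Wee1, the kinase that holds CDK1 inactive, at -0.98, both just under 2-fold lower as deposited and both past it with median centring (-1.03 and -1.02) and loess centring (-1.09 for each).

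Several of these genes encode partners of the members. In end joining, Xrcc4, the partner of LIG4, read 5.64 and 4.22, the latter near the floor, a difference of 1.42. Prkdc, the kinase that Ku recruits, read 7.08 and 5.66, a difference of 1.41. Fanci, which pairs with FANCD2, read 7.47 and 6.08, a difference of 1.39, and Ube2t, the E2 enzyme that works with FANCL, differed by 1.13. Usp1, which removes the ubiquitin again, was level, with 8.70 and 8.94, a difference of -0.24, and so was its cofactor gene Wdr48 at 0.11. Timeless (1.35) and Tipin (1.02), which form the fork protection complex that helps to activate CHK1, were both past 2-fold, although Tipin fell to 0.99 with median centring and 0.92 with loess centring. Other partners of ATR and CHK1 were within 2-fold: Atrip at 0.47, Topbp1 at 0.33 and Clspn at 0.22. Of the clamp that ATR signalling needs, Rad1 differed by 1.19 (0.72 as the mean of its probe sets), Hus1 by 0.85 and Rad9a by 0.09. Among recombination genes, Dna2 (1.33), a nuclease of resection, Rad51ap1 (1.19), Rad51b (1.17) and Eme1 (1.03), a subunit of a junction-cutting nuclease, were also past 2-fold as deposited. Eme1 fell to 0.99 with median centring and 0.94 with loess centring. Usp1, Wdr48, Hus1, Rad9a, Ube2t, Tipin, Eme1, Polk, Wee1, Pms1, Mlh3 and Faap100 fell outside the rule for named genes and were chosen after their values were seen. The same holds for Atrip, Topbp1 and Clspn.

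By pathway, nucleotide excision repair held 0 of 13 genes past 2-fold, with a median of 0.22, and translesion synthesis and direct reversal held 1 of 12, with a median of 0.15. Recombination and crosslink repair held 7 of 28, damage signalling 4 of 20, end joining 2 of 7 and base excision repair 1 of 15, with medians of 0.45, 0.50, 0.14 and 0.37. Both measured mismatch repair genes, Pms1 and Mlh3, were within 2-fold, with a median of 0.88.

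**Figure D5:**
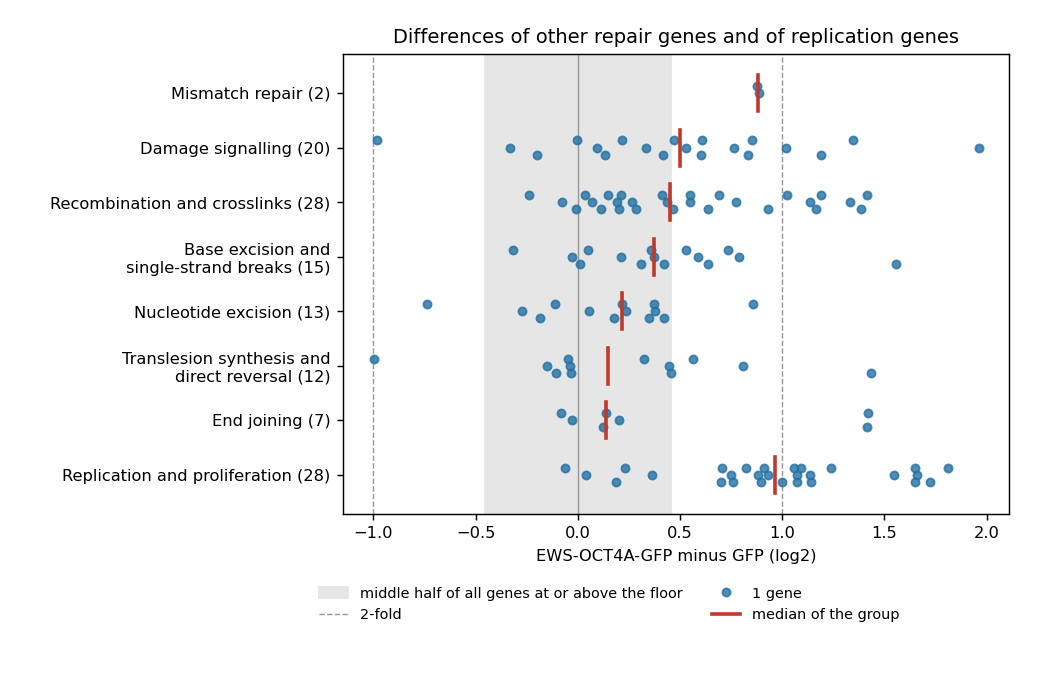
Difference of each repair gene outside the 45 (log2, EWS-OCT4A-GFP minus GFP, horizontal axis) by pathway, with the replication and proliferation genes in the bottom row; points are genes, red lines are medians, dashed lines mark 2-fold and grey is the interquartile range of all genes at or above the floor. Most repair genes lie between 0 and 1, while the replication and proliferation genes have a median of 0.97.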

How the data were processed

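Total RNA of 2 samples was hybridised to an Affymetrix array, 1 sample per line. The authors deposited 1 table of 33793 probe sets, and per the submitters' processing notes its values are RMA summaries from Affymetrix Expression Console 1.1. They were taken as log2 from the use of RMA and from their range, since the table states no log base. RMA forces equal distributions on the arrays and would hide a shift shared by most transcripts, and it compresses differences of weak signals. The series' design text speaks of duplicates, but each line has 1 column, and nothing read here says whether it averages arrays. The genome build of the array annotation is likewise not stated, so coordinates are those of RefSeq promoters only.

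Of the probe sets 23521 had 1 gene symbol, 1814 several and 8458 none in the platform annotation. All 41 measured members had the same symbol in the RefSeq table by gene ID. Every measured member is named, as are the 12 other repair genes with the largest difference among those past 2-fold and up to 4 genes of a marker list, and genes named outside this rule are identified as such. The members and lists were chosen with earlier results of these data known. The marker and repair lists come from general knowledge. Alternatives covered the size threshold, the floor, the normalization (median, quantile, loess with a span of 0.3) and the probe set rule. The procedure was run on simulated data with changes planted well past 2-fold in genes of higher values. That check does not cover weak signals or the unknown replicate error of these samples. Software was statsmodels 0.14.6 for loess, with pandas 2.3.3, numpy 2.4.6 and Python 3.11.15.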

Additional observations from a re-analysis of the deposited data

How the results depend on the processing

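No paired analysis was possible because there is 1 sample in either group, nor could a replicate be left out. For the 41 members, the count at least 2-fold higher (15) was 22 at 1.5-fold, 10 at 3-fold, 13 with the floor at the 75th percentile or at a log2 value of 6, and 15 with no floor, with each of the 3 normalizations and with the mean of all probe sets. The count lower was 0 under each of these alternatives. The median difference (0.72) ran from 0.62 with loess centring to 0.77 with quantile normalization, and the number above 0 (37) from 35 to 37. No member crossed 2-fold under the 3 normalizations. Atr (0.00) turned to -0.03 with median centring and -0.09 with loess centring, and Xpa (0.04) to -0.03 with loess centring. For the other repair genes, the count at least 2-fold higher (15) became 32 at 1.5-fold and 1 at 3-fold, 13 with median centring, loess centring (both without Eme1 and Tipin) or the floor at a log2 value of 6, and 14 with the floor at the 75th percentile or the mean of all probe sets (the last without Rad1), and the count lower (0) became 3 at 1.5-fold and 2 with median centring or loess centring. The 2 genes are Polk and Wee1, which lay just inside the threshold as deposited. Signal over background is unknown, which limits what can be said of Fancl, Fancc, Fancb, Rad51c and Pms2, which read near the floor in at least the control line.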
